A study of Mus musculus with 12 samples.

Results

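The 9 genes examined here build or hold the junctions between lung epithelial cells. They were 4 claudins (Cldn1, Cldn3, Cldn7 and Cldn18), 3 further tight junction genes (Ocln, Tjp1 and F11r) and 2 adhesion genes (Cdh1 and Epcam). They were chosen by symbol, with earlier results of these data known, and are 9 of the 55450 genes counted. All 9 were among the 20612 genes that passed the filter on low counts and were tested.

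Alveolar type 2 (AT2) cells, the surfactant-producing cells of the alveolus, were isolated from C57BL/6 mice aged 6 to 8 weeks. The mice of the WT groups were AhR f/f, with loxP sites in an otherwise intact gene of the transcription factor AhR, the aryl hydrocarbon receptor, which is activated by small ligands. Those of the AhR groups were Sftpc-Cre;AhR f/f, and Cre from the locus of surfactant protein C (Sftpc) removes AhR there in cells that express, or descend from cells that expressed, Sftpc. Their cells are called AhR-deleted below. Cultures on collagen I received PBS or cockroach extract (CRE, 50 µg/ml) over 24 h, and 3 RNA-seq libraries were made for each of the 4 groups. The labels number the libraries of a group 1 to 3 but do not say whether they came from separate mice or cultures, so the p-values measure the spread between these samples, which may be technical. Cells that never expressed Sftpc keep AhR in both genotypes.

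Claudins are membrane proteins whose extracellular loops form the strands of the tight junction and set which ions and solutes pass between cells. Occludin (Ocln) joins these strands, zonula occludens 1 (Tjp1) ties them to actin from the cytoplasmic side, and junctional adhesion molecule A (F11r) is an immunoglobulin-like protein beside them. E-cadherin (Cdh1) carries the adherens junction below, and Epcam is an epithelial adhesion protein that binds claudins. Alveolar epithelium is known for Cldn3, Cldn4 and Cldn18, and Cldn18 is also high in the alveolar type 1 (AT1) cells into which AT2 cells differentiate.

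Total counts per library lay between 68878065 and 80935797. Cyp1b1, a cytochrome P450 gene that AhR activates, served as the check of the genotypes. It stood at 344.1 to 464.7 CPM (the count per 1e6 of the library total after scaling by TMM) in the 6 WT libraries and at 31.75 to 63.87 CPM in the 6 AhR-deleted libraries. Its fold change between genotypes was 0.116 under PBS (edgeR, adjusted p = 0.000879) and 0.111 under CRE (edgeR, adjusted p = 0.000714). The count of Ahr itself did not separate the genotypes, at 42.94 to 56.21 and 37.72 to 51.45 CPM, and a count over the whole gene does not check the loss of some of its exons. All 10 AT2 markers were above 1 FPKM in every group, and Sftpc stood at 2772 to 5465 FPKM. The club cell marker Scgb1a1 was higher still, at 7342 to 15750 FPKM. The other club cell markers listed, Scgb3a1, Scgb3a2, Cyp2f2, Aldh1a1 and Cckar, were far lower, all between 0.3534 and 92.48 FPKM. Leukocyte markers set the 4 libraries numbered 1 apart, as all 10 of them summed to 96.54 to 138.5 FPKM there and to 6.243 to 29.98 FPKM in the 8 others, although CD45-positive cells had been selected against. Values given without the 4 libraries numbered 1 were added after these sums were seen.

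The stretches of DNA before the starts of the claudins whose response to CRE is described below are shown so that the binding letters of AhR and of the lung factor NKX2-1 can be looked for in them. The sequences are the 250 bases before a transcript start, from RefSeq with build GRCm38.p6, and 8 of the 9 genes had an entry in the table used. Cldn18 lies on the minus strand of chromosome 9 (99689461 to 99717267) and has 2 annotated starts, preceded by the windows chr9:99717268-99717517 and chr9:99710064-99710313. Cldn3 is on the plus strand of chromosome 5 (134986214 to 134987472), next to the window chr5:134985964-134986213. Cldn7 is on the plus strand of chromosome 11 (69964779 to 69967885), with windows chr11:69964529-69964778 and chr11:69965171-69965420. Capitals mark GCGTG or CACGC, the core that AhR binds with its partner ARNT, and CAAGTG or CACTTG, a core of NKX2-1. Both strands were searched, and no match overlapped another.
Cldn18 first start: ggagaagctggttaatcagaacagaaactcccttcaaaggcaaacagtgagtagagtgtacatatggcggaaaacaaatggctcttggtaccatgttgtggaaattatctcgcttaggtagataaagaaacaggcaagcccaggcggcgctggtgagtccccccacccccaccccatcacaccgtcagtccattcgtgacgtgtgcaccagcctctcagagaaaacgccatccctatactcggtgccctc
Cldn18 second start: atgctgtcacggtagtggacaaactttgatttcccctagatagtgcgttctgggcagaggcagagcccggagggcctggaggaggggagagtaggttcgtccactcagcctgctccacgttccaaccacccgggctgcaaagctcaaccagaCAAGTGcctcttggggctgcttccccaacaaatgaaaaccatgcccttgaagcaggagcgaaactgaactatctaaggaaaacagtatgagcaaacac
Cldn3: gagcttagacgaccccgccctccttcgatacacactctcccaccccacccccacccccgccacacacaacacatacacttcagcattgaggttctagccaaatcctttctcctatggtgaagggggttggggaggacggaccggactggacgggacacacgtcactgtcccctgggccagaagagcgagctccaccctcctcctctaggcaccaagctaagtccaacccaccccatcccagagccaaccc
Cldn7 first start: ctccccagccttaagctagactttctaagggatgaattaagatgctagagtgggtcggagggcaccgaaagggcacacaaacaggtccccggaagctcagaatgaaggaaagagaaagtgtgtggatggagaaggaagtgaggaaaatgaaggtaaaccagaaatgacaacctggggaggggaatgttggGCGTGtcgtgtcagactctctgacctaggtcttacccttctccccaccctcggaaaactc
Cldn7 second start: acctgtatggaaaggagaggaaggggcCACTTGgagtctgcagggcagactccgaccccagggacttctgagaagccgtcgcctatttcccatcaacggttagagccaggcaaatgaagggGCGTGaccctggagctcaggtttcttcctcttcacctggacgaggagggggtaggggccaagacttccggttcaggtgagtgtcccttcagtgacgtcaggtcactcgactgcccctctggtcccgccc

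Neither window of Cldn18 nor that of Cldn3 held the AhR core, and each window of Cldn7 held 1. Among all 32851 windows of this length in the table, 28.2% held it. The NKX2-1 core was found once each in the second windows of Cldn18 and Cldn7 and in the window of Cldn1, against 11.6% of all windows. The windows of Cldn1, Tjp1 and Epcam also held no AhR core, that of F11r and each of the 2 of Ocln held 1, and no window of a member held the grainyhead site AACNNGTT, which 3.64% of all windows held. The E-box CAGGTG, a site of the SNAI and ZEB repressors of epithelial genes, was in 17.2% of all windows and in those of F11r and Epcam and the second windows of Cldn7 and Ocln. On GRCm38 the other members lie on chromosomes 16 (Cldn1, 26356642 to 26371841), 13 (Ocln, 100496507 to 100552718), 7 (Tjp1, 65296165 to 65527781), 1 (F11r, 171437535 to 171464603), 8 (Cdh1, 106603351 to 106670246) and 17 (Epcam, 87635979 to 87651129). Counts were made over whole genes, and Cldn3 alone of the 9 shares exonic bases with another gene, 40 bases or 3.18% of its exonic length with the antisense gene Wbscr25. A match of letters is no measure of binding, and a window without a match says nothing on other positions.

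Compared per transcript length, in FPKM, the count divided by transcript length and library size, the members ranged from some of the more abundant transcripts of these cells to a trace. Cdh1 had the highest mean over the 12 libraries, 336.7 FPKM, followed by Cldn18 with 295.3 and Cldn3 with 284.3. These 3 genes exchanged places between libraries and their ranges overlapped. F11r followed with 157.9 FPKM and held the fourth place in all 12 libraries. Cldn7, at 99.95 FPKM, and Epcam, at 96.35 FPKM, overlapped in range, and Cldn7 was the higher in 9 of 12 libraries. Tjp1, at 35.91 FPKM, was above Ocln, at 27.46 FPKM, in 11 of 12 libraries, with overlapping ranges.

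Cldn1 was the lowest member in every library, at 0.4202 to 1.205 FPKM, which rested on 157 to 482 counts. In the order of all 20612 genes tested by mean FPKM, Cdh1, Cldn18 and Cldn3 held places 116, 135 and 141, and Cldn1 held place 13498. Cldn4, a claudin of the alveolar epithelium outside the 9 genes, exceeded every member with 513.8 to 819.9 FPKM.

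**Figure D1:**
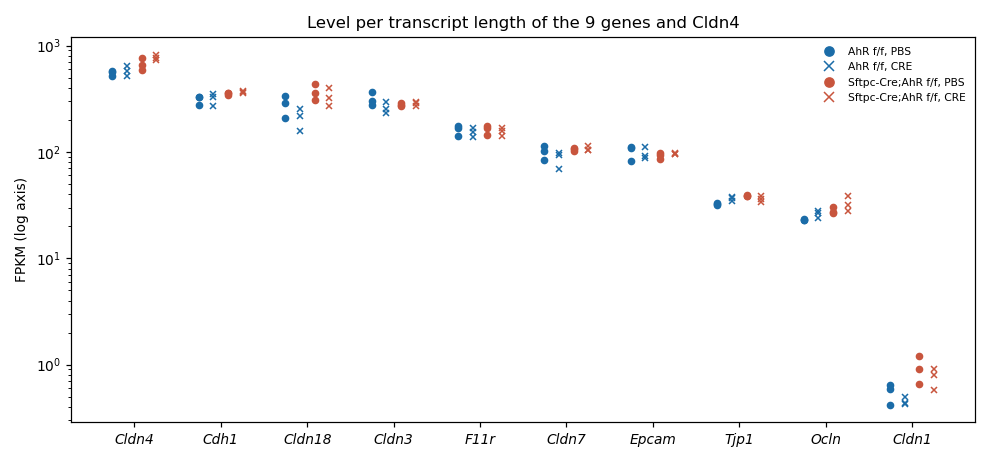
Level per transcript length, in FPKM on a log axis, of the 9 genes and Cldn4 in all 12 libraries, with genotype by color and treatment by symbol. Cldn4 lies highest with a mean of 642 FPKM, 8 members lie between 22.88 and 433.1 FPKM, and Cldn1 lies lowest at or below 1.205 FPKM.

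The members also differed in how far their level varied among libraries. Tjp1 was the steadiest, with a coefficient of variation of its CPM of 7.51% over the 12 libraries, and Cldn18 and Cldn1 varied most, with 27.2% and 35.6%. The 2 WT libraries numbered 1 were the lowest of their groups for Cldn3, Cldn7, Cldn18, F11r, Cdh1, Epcam, Ocln and Tjp1, and their mean standardized level over the 9 genes was -1.14 under PBS and -1.54 under CRE, against -0.06 to 0.79 in the 10 others. These are also the 2 libraries with the largest sums of leukocyte markers, 138.5 and 114 FPKM. The AhR-deleted libraries numbered 1, with sums of 99.64 and 96.54 FPKM, had member scores of -0.06 and 0.22, and the part of leukocytes in the member levels was not tested. In bulk RNA, fewer cells of a type and less RNA per cell cannot be told apart.

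Across the 12 libraries, the 36 pairs of members ranked differently by the 2 measures of correlation of log2 CPM. By Pearson correlation Cdh1 and Cldn7 were highest, at 0.82, with a Spearman correlation of 0.45. By Spearman correlation Ocln and Cdh1 were highest, at 0.80, with a Pearson correlation of 0.67. Cldn3 and Tjp1 were lowest by both, at -0.26 and -0.24, while their deviations from group means had a Pearson correlation of 0.31. Over all 12985 genes with at least 1 CPM in every library, the genes most like the mean standardized level of the members were Cbll1 (Pearson correlation 0.941), Gatad2a (0.927), Pkp2 (0.914), Capn2 (0.912) and Sema4f (0.908). The points of these correlations share libraries, and the 2 low WT libraries lie at the end of the range, so they are given as descriptions.

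**Figure D2:**
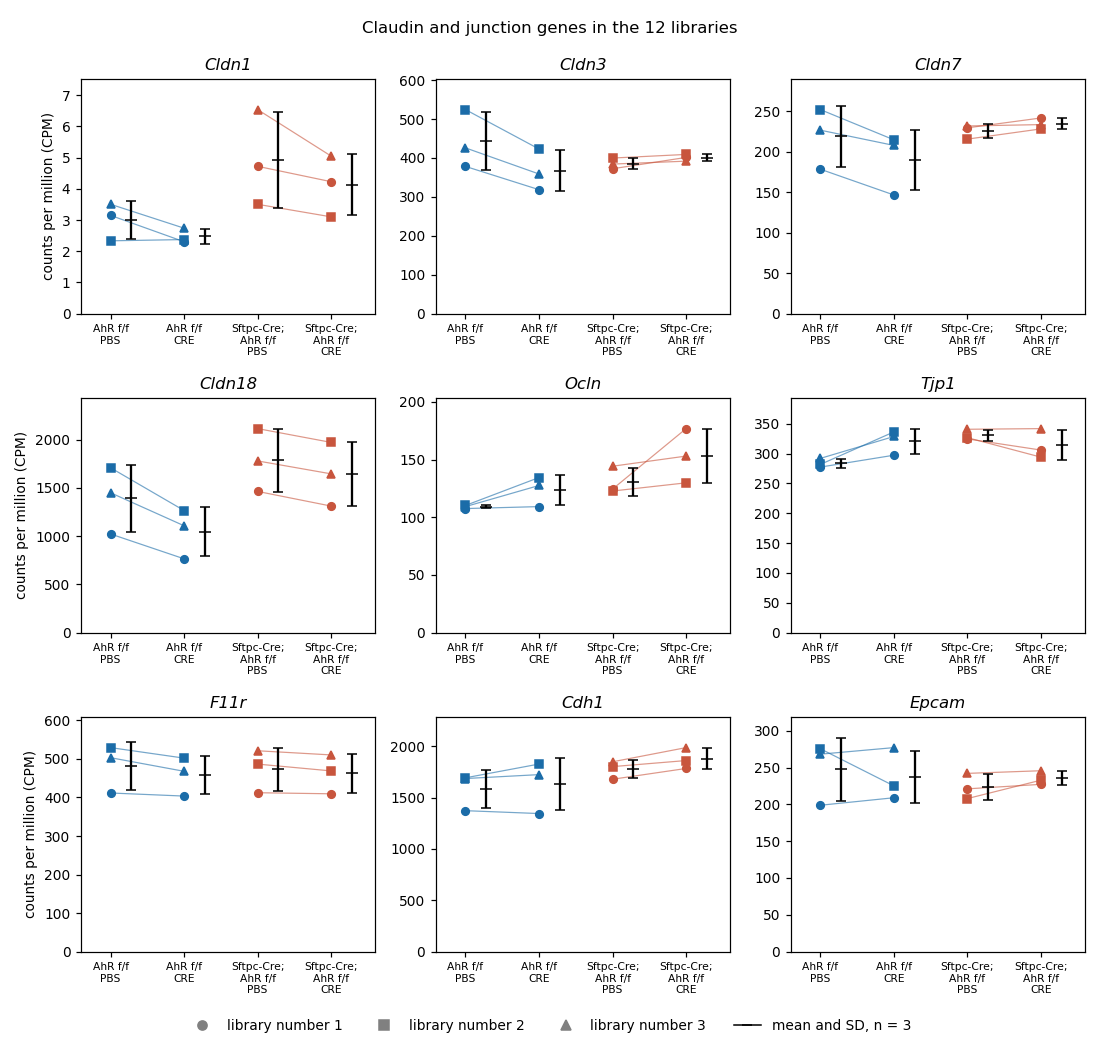
CPM of each of the 9 genes in the 12 libraries, with lines joining PBS and CRE libraries of the same number and genotype, and bars for the mean and SD of 3 libraries. Cldn18 falls along all 6 lines, Cldn3 and Cldn7 fall along the 3 WT lines and rise slightly along the 3 others, and the WT libraries numbered 1 lie low in most panels.

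To ask how junction genes responded to CRE, PBS and CRE libraries were compared within each genotype. A gene was called when edgeR's quasi-likelihood test gave a Benjamini-Hochberg adjusted p below 0.05 over the 20612 genes, and the study's rule (unadjusted limma-trend p below 0.05 with a log2 fold change above 0.5 in size) was counted beside it. In WT cells 0 of 9 members were called, against 0.233% of all genes tested, and 0 met the study's rule, against 4.11%. Cldn3 and Tjp1, 2 of 9, had an unadjusted edgeR p below 0.05, against 9.36% of all genes. In AhR-deleted cells 0 of 9 were called, against 0.262%, 0 met the study's rule, against 3.38%, and 0 had an unadjusted p below 0.05, against 6.48%. DESeq2 and limma-trend with Benjamini-Hochberg adjustment also called 0 of 9 in either genotype.

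The edgeR test compares group means and counts the spread between libraries of different number as error. Within each genotype the numbers paired the PBS and CRE libraries. The fit with each pair as a block called 3 of 9 members in WT cells, Cldn18, Cldn3 and Cldn7, all lower with CRE, where 3.63% of all genes were called and 1.76% were called lower. It called 0 of 9 in AhR-deleted cells, where 2.13% of all genes were called.

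Cldn18 had the largest paired difference of the 4 member claudins in WT cells. In WT cells it stood at 1022, 1708 and 1449 CPM under PBS in libraries 1, 2 and 3, and at 764.5, 1265 and 1107 CPM under CRE. The groups overlapped, but CRE was lower in each pair, by a factor of 0.748, 0.741 and 0.764. Its log2 fold change was -0.41 ± 0.24 (SE, n = 3 and 3) without the pairing (edgeR, adjusted p = 0.644) and -0.41 ± 0.03 with it (edgeR, adjusted p = 0.00156).

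In AhR-deleted cells Cldn18 stood at 1463, 2114 and 1779 CPM under PBS and at 1311, 1971 and 1645 CPM under CRE. It was again lower in each pair, by factors of 0.896, 0.932 and 0.925, a smaller step than in any WT pair. The log2 fold change was -0.12 ± 0.24 without the pairing (edgeR, adjusted p = 1) and -0.12 ± 0.03 with it (edgeR, adjusted p = 0.0769). The responses of both genotypes differed by 0.29 on the log2 scale, which was not called with the pairing (edgeR, adjusted p = 0.353) nor without it (edgeR, adjusted p = 1). Averaged over both genotypes the paired log2 fold change was -0.27 ± 0.02 (edgeR, adjusted p = 0.000551), where the paired fit called 3.11% of all genes lower and the fit without pairing 1.10% in either direction and none of the 9 members, of which Ocln had an unadjusted p below 0.05, against 11.1% of all genes. With any 1 of the 6 pairs left out, the paired call in WT cells stayed, with adjusted p from 0.00366 to 0.0149.

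Cldn3, like Cldn18 a claudin of the alveolar barrier, also fell in WT cells in the paired fit. It stood at 378.3, 524.3 and 425.9 CPM under PBS and at 318.5, 423 and 358.8 CPM under CRE. The paired log2 fold change was -0.27 ± 0.04 (edgeR, adjusted p = 0.0138), against an adjusted p of 0.533 without the pairing. In AhR-deleted cells it stood at 372.3, 399.8 and 384.3 CPM under PBS and at 401.4, 409.1 and 391.8 CPM under CRE, slightly higher in each pair, with a paired log2 fold change of 0.06 that was not called (edgeR, adjusted p = 0.545). With 1 WT pair left out, the call in WT cells was lost each time, at adjusted p of 0.0582, 0.0991 and 0.0898 for pairs 1, 2 and 3. It was kept without any 1 AhR-deleted pair, at adjusted p from 0.0257 to 0.0431.

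Cldn7, a claudin of many epithelia, also fell in WT cells in the paired fit. In WT cells it stood at 178.2, 251.8 and 226.4 CPM under PBS and at 146.4, 214.5 and 207.6 CPM under CRE, with a paired log2 fold change of -0.21 ± 0.04 (edgeR, adjusted p = 0.0492), against an adjusted p of 0.745 without the pairing. In AhR-deleted cells it stood at 229.3, 215.4 and 231.6 CPM under PBS and at 241.5, 228 and 233.3 CPM under CRE, higher in each pair, with a paired log2 fold change of 0.06 (edgeR, adjusted p = 0.653). The WT call lay next to the threshold and was lost when any 1 of the 6 pairs was left out, with adjusted p from 0.0787 to 0.22.

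In all, 2 of 9 members, Cldn3 and Cldn7, lay on opposite sides of 0 in the pairs of the 2 genotypes, lower with CRE in the 3 WT pairs and higher in the 3 AhR-deleted pairs. Of all genes tested, 2.31% did so. The test of the difference itself called neither gene, and it called 0 of 20612 genes with or without the pairing. Without the pairing, 763 genes (3.70%) had an unadjusted edgeR p below 0.05, and DESeq2 called 23 genes, none of them a member.

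**Figure D3:**
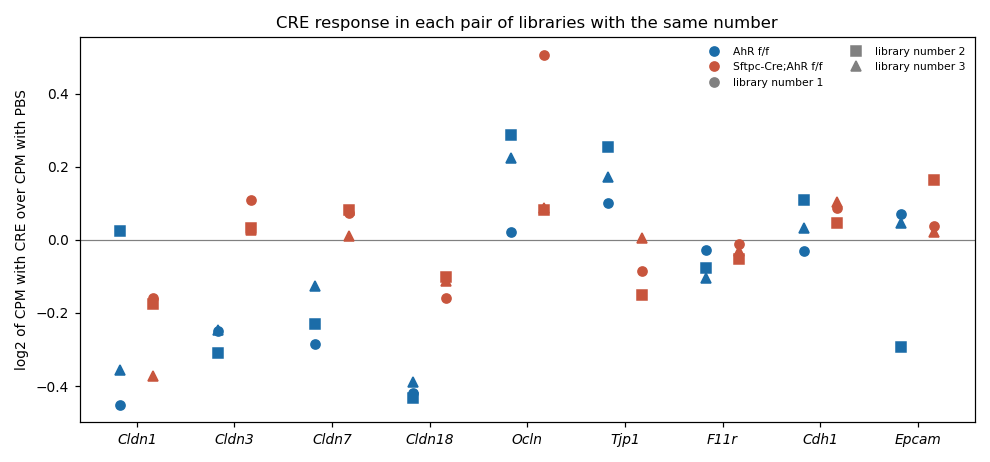
Log2 ratio of CPM with CRE over CPM with PBS for each member in each of the 6 same-numbered pairs, WT (AhR f/f) in blue and AhR-deleted (Sftpc-Cre;AhR f/f) in red. Cldn18 and F11r lie below 0 and Ocln above 0 in all 6 pairs, and Cldn3 and Cldn7 lie on opposite sides of 0 in the 2 genotypes.

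Cldn1, a claudin best known from skin and airway barriers, had few counts. It stood at 3.148, 2.333 and 3.504 CPM under PBS and 2.303, 2.373 and 2.738 CPM under CRE in WT cells, and at 4.721, 3.503 and 6.539 CPM under PBS and 4.228, 3.101 and 5.048 CPM under CRE in AhR-deleted cells. CRE was lower in 5 of 6 pairs, and the log2 fold changes of -0.28 ± 0.27 and -0.25 ± 0.27 were within about 1 SE of 0 (edgeR, adjusted p = 0.86 and 1).

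Among the other tight junction genes, Ocln was higher with CRE in all 6 pairs, as were 7.57% of all genes. It stood at 107.5, 110.2 and 109.2 CPM under PBS and 109.2, 134.4 and 127.5 CPM under CRE in WT cells, and at 124.4, 122.7 and 144.2 CPM under PBS and 176.8, 129.8 and 153 CPM under CRE in AhR-deleted cells. The PBS and CRE values overlapped in both genotypes, 1 pair carried most of the difference in AhR-deleted cells, and neither fit called it (averaged over genotypes, log2 fold change 0.21 ± 0.08, edgeR adjusted p = 0.359 without and 0.145 with the pairing).

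Tjp1 was the 1 member whose PBS and CRE groups did not overlap in WT cells, with CRE the higher, as for 8.82% of all genes tested. It stood at 277.5, 282 and 292.1 CPM under PBS and at 297.4, 336.5 and 328.8 CPM under CRE, a log2 fold change of 0.18 ± 0.07 (edgeR, adjusted p = 0.468, and 0.0998 with the pairing). In AhR-deleted cells it stood at 324.7, 326.8 and 340.9 CPM under PBS and at 306, 294.1 and 342 CPM under CRE, with overlapping groups as for all 9 members there, against 11.8% of all genes that did not overlap. Without the pairing, its difference in response between genotypes, -0.25 ± 0.10, had an unadjusted p of 0.0298 and was not called (edgeR, adjusted p = 1). In that fit it was the 1 of 9 members below 0.05, against 3.70% of all genes. With the pairing its unadjusted p was 0.00631, and those of Cldn18 (0.00012), Cldn3 (0.000332) and Cldn7 (0.00323) were lower. None of these was called (edgeR, adjusted p from 0.353 to 0.494), and the paired share of all genes below 0.05 is not given here.

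F11r, with 403.7 to 529.5 CPM in WT and 409.6 to 521.3 CPM in AhR-deleted libraries, was lower with CRE in all 6 pairs, as was Cldn18, and 6.79% of all genes shared this. Its steps were small, from -0.01 to -0.10 on the log2 scale. The adhesion genes were not called with CRE in either fit. Cdh1 lay between 1344 and 1986 CPM over the 12 libraries, with log2 fold changes of 0.04 ± 0.12 and 0.08 ± 0.12 with CRE in WT and AhR-deleted cells. Epcam lay between 198.8 and 277.1 CPM, with log2 fold changes of -0.06 ± 0.13 and 0.07 ± 0.13.

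The summed markers of AT1 cells were also lower under CRE than under PBS in every pair. The direction of the sums was not particular to AT1 cells, as those of club cell, leukocyte, fibroblast and mesothelium markers were lower in every pair too. Most of the club cell sum was Scgb1a1. The 10 AT1 markers summed to 600.3 to 727.9 FPKM under PBS and to 407.4 to 481.9 FPKM under CRE in WT cells, and to 623.2 to 847 and 452.6 to 594.5 FPKM in AhR-deleted cells. Averaged over genotypes, 10 of 10 AT1 markers had negative log2 fold changes, with a median of -0.41 beside -0.00 over all genes tested. The mesothelium markers, 5 of 5, were negative too, with a median of -0.53. Medians of the club cell, leukocyte and fibroblast markers were smaller in size, at -0.13, -0.10 and -0.06, and none of these markers was called lower. In this comparison edgeR called 3 of the 10 AT1 markers and 1 of the 10 AT2 markers lower, against 48 of all 20612 genes. None of the 10 AT1 markers was at 0 in a whole group, and Ager, a receptor abundant in AT1 cells, stood at 101.2 to 330.3 FPKM. The 10 AT2 markers summed to 8390 to 9508 FPKM under PBS and 7338 to 8202 FPKM under CRE in WT cells, groups that did not overlap, and to 5262 to 9539 and 5407 to 9629 FPKM in AhR-deleted cells, groups that did. The part of AT1 cells in the values of Cldn18 was not tested.

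To ask whether junction genes differed with AhR deletion, the genotypes were compared within each treatment. DESeq2, limma-trend with Benjamini-Hochberg adjustment and edgeR each called 0 of 9 members under PBS and under CRE. Under PBS 0 of 9 members were called, against 0.150% of all genes, and Cldn1 alone met the study's rule, on the higher side in AhR-deleted cells, against 2.34% of all genes on that side. Cldn1, Ocln and Tjp1, 3 of 9, had an unadjusted p below 0.05, against 8.37%. Under CRE 0 of 9 were called, against 0.170%, and Cldn1 and Cldn18 met the study's rule, both higher in AhR-deleted cells, against 1.72%. Cldn1, Cldn18 and Ocln, 3 of 9, had an unadjusted p below 0.05, against 5.95%. Groups that did not overlap, all higher in AhR-deleted cells, were found for 2 of 9 members under PBS (Ocln and Tjp1), against 6.60% of all genes on that side, and for 3 of 9 under CRE (Cldn1, Cldn7 and Cldn18), against 5.56%. Averaged over treatments 0 of 9 were called, against 0.631%, Cldn1 and Cldn18 met the study's rule on the higher side, against 2.44%, and Cldn1, Cldn18 and Ocln had an unadjusted p below 0.05, against 9.93%. The averages over treatments count the paired PBS and CRE libraries of a genotype as independent, so their SE and p-values may be too small.

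Markers of ciliated airway cells were also higher in AhR-deleted cells by their fold changes, though none was called by edgeR. Of 6 markers 5 had a positive log2 fold change under each treatment, with a median of 0.41 under PBS and 0.56 under CRE, beside -0.00 over all genes tested. Under CRE 3 met the study's rule on the higher side, Foxj1, Cfap126 and Tppp3, and 2 of these had groups apart. Their summed level overlapped, at 588 to 709.6 FPKM in WT and 622 to 639.9 FPKM in AhR-deleted cells under PBS, and at 589.4 to 699.3 and 671.3 to 679.9 FPKM under CRE. Most of this sum was Tubb4b, with a mean of 580.3 FPKM and a log2 fold change between genotypes of -0.02 under CRE. The other markers had means from 0.8998 FPKM (Ccdc153) to 27.81 FPKM (Tppp3), so the sum says little of them. None of the 6 was at 0 in a whole group. Of the 10 AT1 markers 7 were positive under each treatment, with medians of 0.08 under PBS and 0.18 under CRE, and none was called. Rtkn2 alone of them met the study's rule, under CRE, with overlapping groups. Mesothelium markers were positive in 5 of 5 under PBS and 2 of 5 under CRE, and AT2 markers in 2 of 10 under each. The part of ciliated or AT1 cells in the member values was not tested.

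Cldn18 was higher in AhR-deleted than in WT cells by a log2 fold change of 0.36 ± 0.24 under PBS (edgeR, adjusted p = 0.759), with overlapping groups. With the replicate number as a block it was 0.37 ± 0.06 and was called (edgeR, adjusted p = 0.0479), as were 0.0922% of all genes on the higher side. This call lay next to the threshold, and the deviations of WT PBS library 3 followed AhR-deleted PBS library 2 (correlation 0.206) more closely than library 3 (0.12). The genotypes came from different mice, and in the labels only a number joins their libraries. This block shared its replicate terms among all 12 libraries and counted paired PBS and CRE libraries as independent. Its SE and p-value may therefore be too small. Without WT PBS library 1 the log2 fold change without the block was 0.18. Under CRE, the AhR-deleted libraries, at 1311 to 1971 CPM, all lay above the WT libraries, at 764.5 to 1265 CPM. The log2 fold change was 0.65 ± 0.24 (edgeR, adjusted p = 0.763). It was 0.47 without the WT CRE library 1, the one with the lowest Cldn18, and 0.60 without the 4 libraries numbered 1 (edgeR, adjusted p = 0.44).

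Cldn1 had the largest fold between genotypes among the members. It was 1.64 times as high in AhR-deleted as in WT cells under PBS (log2 fold change 0.72 ± 0.27, edgeR adjusted p = 0.525) and 1.67 times under CRE (0.74 ± 0.27, edgeR adjusted p = 0.767). The PBS groups touched, at 2.333 to 3.504 against 3.503 to 6.539 CPM, and the CRE groups were apart, at 2.303 to 2.738 against 3.101 to 5.048 CPM. Averaged over treatments the log2 fold change was 0.73 ± 0.19 (edgeR, unadjusted p = 0.00334, adjusted p = 0.184). Without AhR-deleted PBS library 3, the highest of all 12, the PBS log2 fold change was 0.46. DESeq2 called Cldn1 in the average over treatments (adjusted p = 0.0196), where it called more of all genes than edgeR, whose share was 0.631%. Both averages counted the paired PBS and CRE libraries as independent, so these p-values may be too small. The numbers of genes that DESeq2 called are given with the other settings below.

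Cldn7 was higher in every AhR-deleted CRE library than in any WT CRE library, with a log2 fold change of 0.31 ± 0.15 (edgeR, adjusted p = 0.857) that was 0.15 without WT CRE library 1. Under PBS it was 0.04 ± 0.15. Without the 4 libraries numbered 1 these values were 0.12 and -0.09, so that the PBS direction turned, as it did without WT PBS library 1 alone (-0.08). Cldn3 was 0.20 lower on the log2 scale under PBS and 0.13 higher under CRE, each with an SE of 0.12. These values were -0.06 without WT PBS library 2 and 0.04 without WT CRE library 1.

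Ocln was higher in AhR-deleted cells under both treatments, with log2 fold changes of 0.26 ± 0.12 and 0.31 ± 0.12 (edgeR, adjusted p = 0.584 and 0.769), and averaged over treatments by 0.28 ± 0.08 (edgeR, unadjusted p = 0.00532, adjusted p = 0.229). The average again counted paired libraries as independent. Tjp1 was higher by 0.22 ± 0.07 under PBS (edgeR, adjusted p = 0.439), where its groups did not overlap, and had a log2 fold change of -0.03 ± 0.07 under CRE. F11r had log2 fold changes of -0.02 ± 0.13 and 0.02 ± 0.13. Cdh1 had 0.17 ± 0.12 and 0.20 ± 0.12, and Epcam had -0.15 ± 0.13 and -0.01 ± 0.13.

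**Figure D4:**
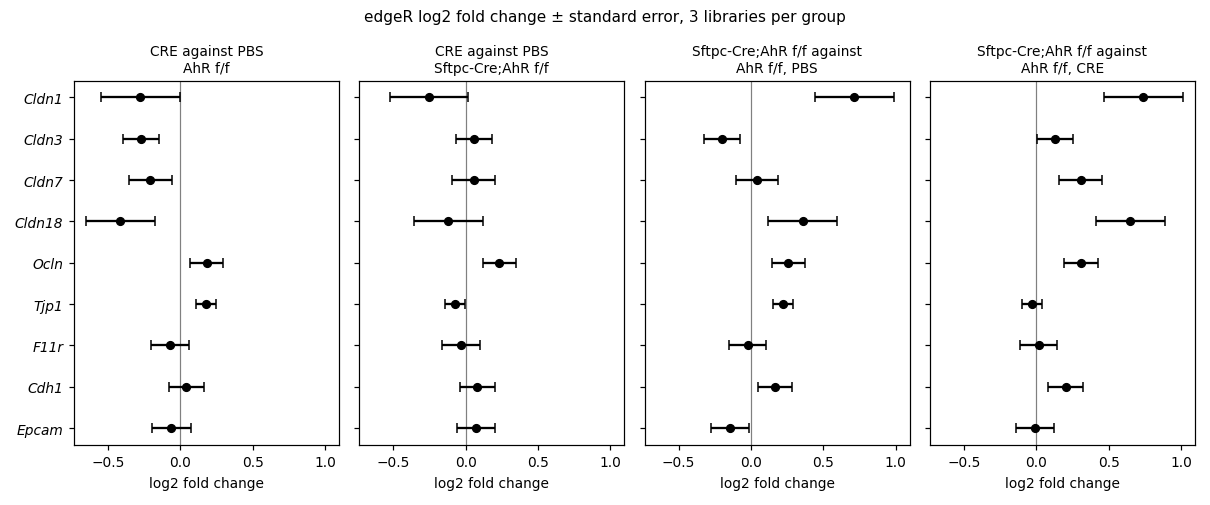
Log2 fold change of each member in 4 comparisons from edgeR, with the standard error as bars and 3 libraries per group. Cldn1 and Cldn18 lie farthest from 0 between genotypes, at 0.74 and 0.65 under CRE, and no member was called in any of the 4 comparisons without pairing.

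Outside the 9 genes, 87 further junction genes and their regulators were counted in 7 lists, of which 76 were tested. Between PBS and CRE 2 of them were called, Tjp3 and Ehf, both higher with CRE, against 0.233% of all genes in WT cells (Ehf), 0.262% in AhR-deleted cells (both) and 1.10% averaged over genotypes (both). Tjp3 encodes zonula occludens 3, a scaffold related to Tjp1. It stood at 24.49, 28.8 and 27.38 CPM under PBS and at 39.86, 58.69 and 57.51 CPM under CRE in WT cells, and at 27.45, 21.18 and 20.31 CPM under PBS and 47.69, 56.82 and 42.02 CPM under CRE in AhR-deleted cells. All 6 CRE libraries were above all 6 PBS libraries. The fold change was 1.93 in WT cells (log2 0.95 ± 0.17, edgeR adjusted p = 0.077, and 0.0161 with the pairing) and 2.13 in AhR-deleted cells (log2 1.09 ± 0.17, edgeR adjusted p = 0.0315, and 0.0107 with the pairing).

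The call for Tjp3 in AhR-deleted cells was kept without WT CRE library 1, WT CRE library 2 or AhR-deleted PBS library 1, was lost without any 1 of the 9 others, at adjusted p from 0.0528 to 0.153, and when only the 6 libraries compared were fitted (adjusted p = 0.136). Averaged over genotypes the fold change was 2.03 (edgeR, adjusted p = 0.00254). Tjp3 shares 40 exonic bases, 1.08% of its exonic length, with Apba3 on the other strand. Per length it stood at 4.88 to 13.94 FPKM, below Tjp1, at 31.72 to 39.01 FPKM.

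Ehf, an Ets-family transcription factor of epithelial cells, stood at 64, 76.96 and 77.23 CPM under PBS and at 137.4, 198.8 and 184.2 CPM under CRE in WT cells, and at 63.08, 59.78 and 64.71 CPM under PBS and 122.5, 133.7 and 167.1 CPM under CRE in AhR-deleted cells. No CRE library overlapped the PBS range. Its fold change was 2.39 in WT cells (log2 1.25 ± 0.15, edgeR adjusted p = 0.00666) and 2.26 in AhR-deleted cells (log2 1.17 ± 0.15, edgeR adjusted p = 0.00894). With only the 6 libraries compared in the fit the adjusted p was 0.057 and 0.0509, and without AhR-deleted PBS library 2 it was 0.0576 in AhR-deleted cells. Without the 4 libraries numbered 1 it was 0.0122 and 0.0165.

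**Figure D5:**
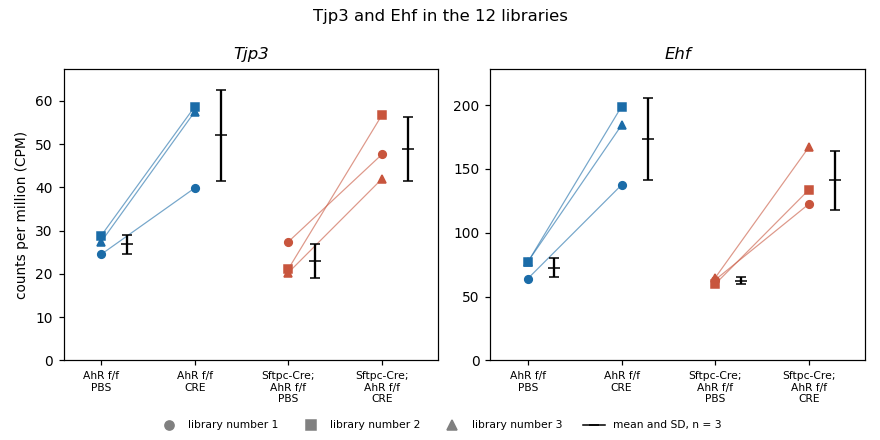
CPM of Tjp3 and Ehf in the 12 libraries, with lines joining same-numbered PBS and CRE libraries of a genotype and bars for the mean and SD of 3 libraries. Both genes rise along all 6 lines, Tjp3 from at most 28.8 to at least 39.86 CPM and Ehf from at most 77.23 to at least 122.5 CPM.

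The other 5 lists held no called gene in any of the 7 comparisons by edgeR, and at an unadjusted edgeR p below 0.05 they held 3 of 45 genes tested for CRE in WT cells, against 9.36% of all genes, and 2 in AhR-deleted cells, against 6.48%. Between genotypes they held 1 under PBS, against 8.37%, and 1 under CRE, against 5.95%. They held 4 for CRE averaged over genotypes, against 11.1%, 6 for genotype averaged over treatments, against 9.93%, and 0 for the difference of responses, against 3.70%. Of 20 other claudins listed 19 were found and 9 were tested, and their median log2 fold change with CRE was -0.12 in WT and -0.04 in AhR-deleted cells, beside medians of -0.00 over all genes. Cldn4, the most abundant, was higher in AhR-deleted cells by 0.24 ± 0.11 under PBS and 0.41 ± 0.11 under CRE on the log2 scale (edgeR, adjusted p = 0.609 and 0.438), with groups apart under CRE. Cldn12 followed with a mean of 19.19 FPKM. Cldn11 met the study's rule under CRE, at 0.51 to 0.759 CPM in WT and 0 to 0.275 CPM in AhR-deleted cells, on at most 61 counts (log2 fold change -1.70 ± 0.91, edgeR adjusted p = 0.919).

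Of the 9 tight junction membrane genes the highest were Lsr, the tricellular receptor, with a mean of 91.79 FPKM, and Crb3, a polarity protein, with 38.73 FPKM. Of the 16 scaffold and polarity genes Prkci, an atypical protein kinase C, stood at 145.2 FPKM and cingulin (Cgn) at 87.63 FPKM. The 14 adherens junction genes were led by beta-catenin (Ctnnb1), with 187.4 FPKM, and alpha-catenin (Ctnna1), with 101 FPKM, the proteins that join Cdh1 to actin. Averaged over treatments, 13 of these 14 had a positive log2 fold change between genotypes, with a median of 0.09 beside -0.01 over all genes, and 0 were called.

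The 9 desmosome genes were led by Perp, with 76.48 FPKM, and periplakin (Ppl), with 46.76 FPKM, and Perp had a log2 fold change of 0.56 ± 0.15 with CRE averaged over genotypes (edgeR, adjusted p = 0.129). Spint2, an inhibitor of the protease that cleaves Epcam, stood at 70.61 FPKM, and 0 of the 4 genes listed as related to Epcam were called. Of the 15 transcription and splicing factors the highest were Elf3, with 43.78 FPKM, and Nkx2-1, with 40.51 FPKM. Nkx2-1, the lung lineage factor whose core is marked above, ranged from 20.49 to 252.6 CPM within the WT PBS group alone.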

How the data were processed

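RNA was sequenced from AT2 cells of 4 groups with 3 libraries each. Per the labels and the study's methods, reads of stranded mRNA libraries were aligned by the authors with STAR 2.7.2b to GRCm38, and the deposited counts per gene come from Salmon. Whether counting used strand is not given in the sources used here. The authors also deposited FPKM, counts scaled by gene length and library size, which were used only to compare levels between genes.

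Libraries had 68878065 to 80935797 counts. Genes were filtered with filterByExpr at a minimum count of 10, scaled by TMM and tested with edgeR 4.0.16 in R 4.3.3 in 1 fit of 4 group means (8 residual degrees of freedom), at a Benjamini-Hochberg adjusted p of 0.05. The study's rule was computed with limma 3.58.1 (limma-trend on log2 CPM, prior count 2). CPM given per library are counts per 1e6 of the total count multiplied by the TMM factor. Other settings were DESeq2 1.42.0, other scaling, no filter, left-out libraries and a replicate block. The tests were tried on simulated data.

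By the labels' numbers and the data, PBS and CRE libraries were paired within a genotype. Between genotypes, same-numbered libraries were joined by the number alone. Over 11476 genes with at least 5 CPM, deviations from group means of same-numbered libraries correlated at 0.727, 0.395 and 0.629 (PBS and CRE, WT), 0.592, 0.527 and 0.337 (PBS and CRE, AhR-deleted) and 0.383, 0.13 and 0.12 (both genotypes under PBS, where WT library 3 correlated better with AhR-deleted library 2, at 0.206). For both genotypes under CRE these correlations were 0.364, -0.036 and 0.07. Paired fits of CRE against PBS held a term for each pair. The block between genotypes instead held terms for the replicate number, shared by all 4 groups.

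Named genes were the 9 members, genes of 7 junction lists that edgeR called, the 2 most abundant of each list, genes meeting the study's rule with groups apart, and 5 genes most like the members. Some values of listed genes are not reported here. Members, lists and markers (AT2, AT1, club cell, ciliated cell, leukocyte, fibroblast, mesothelium) were chosen with earlier results of these data known. Windows before gene starts come from RefSeq (GRCm38.p6).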

Additional observations from a re-analysis of the deposited data

Results flagged for a closer look

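Cldn3 and Cldn7 are listed because their CRE to PBS ratios lay on opposite sides of 0 in the genotypes, below it in each of the 3 WT pairs and above it in each of the 3 AhR-deleted pairs. The log2 ratios of CRE over PBS for Cldn3 were -0.25, -0.31 and -0.25 in WT and 0.11, 0.03 and 0.03 in AhR-deleted pairs. For Cldn7 they were -0.28, -0.23 and -0.12 in WT and 0.07, 0.08 and 0.01 in AhR-deleted pairs. The paired difference of the responses was 0.32 for Cldn3 (edgeR, adjusted p = 0.489) and 0.27 for Cldn7 (edgeR, adjusted p = 0.494). Without the pairing it was 0.33 ± 0.17 and 0.26 ± 0.21 on the log2 scale (edgeR, adjusted p = 1 for both). Neither was called, and 2.31% of all genes tested showed the same signs.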

How the results depend on the processing

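The directions and calls of the members were compared over the settings named here. The comparisons are abbreviated as CRE in WT, CRE in AhR-deleted, genotype under PBS, genotype under CRE, response difference, mean CRE and mean genotype. Over all genes edgeR called 48 (CRE in WT), 54 (CRE in AhR-deleted), 31 (genotype under PBS), 35 (genotype under CRE), 0 (response difference), 226 (mean CRE) and 130 (mean genotype), DESeq2 called 414 (CRE in WT), 255 (CRE in AhR-deleted), 234 (genotype under PBS), 171 (genotype under CRE), 23 (response difference), 743 (mean CRE) and 522 (mean genotype), and the replicate block called 748 (CRE in WT), 439 (CRE in AhR-deleted), 71 (genotype under PBS), 55 (genotype under CRE), 1358 (mean CRE) and 223 (mean genotype). Fits of only the 6 libraries compared called 13 (CRE in AhR-deleted) and 15 (genotype under PBS), and fits without the 4 libraries numbered 1 called 19 (genotype under CRE), 4 (response difference) and 64 (mean genotype). The study's rule was met by 848 (CRE in WT), 696 (CRE in AhR-deleted), 846 (genotype under PBS), 705 (genotype under CRE), 475 (response difference), 828 (mean CRE) and 847 (mean genotype), by 1332 (CRE in WT), 1230 (CRE in AhR-deleted), 1310 (genotype under PBS), 1221 (genotype under CRE) and 887 (response difference) with no filter, and by 1290 (CRE in WT), 1080 (CRE in AhR-deleted) and 785 (response difference) with the replicate block. With 1 library left out the genes called ranged over 19 to 51 (CRE in WT), 23 to 62 (CRE in AhR-deleted), 15 to 29 (genotype under PBS), 21 to 35 (genotype under CRE), 0 to 2 (response difference), 125 to 219 (mean CRE) and 78 to 110 (mean genotype). 

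Of the 9 members, the replicate block called 3 (CRE in WT), 1 (genotype under PBS), 1 (genotype under CRE), 1 (mean CRE) and 2 (mean genotype), DESeq2 called 1 (mean genotype), and no other setting run called a member. Between genotypes under CRE same-numbered libraries share only a number, since their deviations from the group means correlated at 0.364, -0.036 and 0.07, and WT library 3 correlated best with AhR-deleted library 2, at 0.36. The block called Cldn18 there (log2 fold change 0.66, edgeR adjusted p = 0.00305) and in the mean over treatments (0.52, 0.00065), where it also called Cldn1 (0.70, 0.0427). It changed no other call of a member. The limits of the block between genotypes, given with Cldn18 under PBS, hold here too. Without the 4 libraries numbered 1 the members that met the study's rule were 0 (genotype under PBS), 1 (genotype under CRE) and 1 (mean genotype), and with 1 library left out they ranged over 0 to 1 (CRE in WT), 0 to 1 (genotype under PBS), 0 to 2 (genotype under CRE) and 1 to 2 (mean genotype). With library size alone the sign turned for F11r genotype under PBS (0.009), Cldn1 response difference (-0.002), Epcam mean CRE (-0.004) and F11r mean genotype (0.014). Without the 4 libraries numbered 1 the sign turned for Cldn7 genotype under PBS (-0.092), Ahr genotype under PBS (-0.045), Cldn1 response difference (-0.119), Ocln response difference (-0.182), Cdh1 response difference (-0.006) and Epcam mean CRE (-0.015). With 1 library left out, the log2 fold changes whose sign turned ranged over F11r CRE in WT -0.173 to 0.011, Cdh1 CRE in WT -0.05 to 0.165, Epcam CRE in WT -0.198 to 0.022, Cldn1 CRE in AhR-deleted -0.447 to 0.005, Cldn18 CRE in AhR-deleted -0.274 to 0.02, F11r CRE in AhR-deleted -0.123 to 0.048, Cldn7 genotype under PBS -0.085 to 0.157, F11r genotype under PBS -0.125 to 0.067, Ahr genotype under PBS -0.032 to 0.116, Tjp1 genotype under CRE -0.097 to 0.027, F11r genotype under CRE -0.067 to 0.097, Epcam genotype under CRE -0.094 to 0.116, Cldn1 response difference -0.17 to 0.283, Ocln response difference -0.067 to 0.156, F11r response difference -0.051 to 0.141, Cdh1 response difference -0.086 to 0.129, Cldn7 mean CRE -0.14 to 0.002, Epcam mean CRE -0.063 to 0.047, Cldn3 mean genotype -0.087 to 0.034 and F11r mean genotype -0.055 to 0.041. Of all 1542 recomputed log2 fold changes 65 turned sign, and the largest of these in size was 0.182. The cause of these changes was not tested. Cldn1 rested on 157 to 482 counts per library, and the other members on 7416 or more. Fits without 1 library of a group of 3 took the spread from all groups.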

Other observations

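Nkx2-1, the lung lineage transcription factor, varied widely within each group. In WT cells it stood at 20.49, 252.6 and 230.6 CPM under PBS and at 147.9, 166.3 and 31.58 CPM under CRE in libraries 1, 2 and 3. In AhR-deleted cells it stood at 31.31, 206 and 50.79 CPM under PBS and at 26.37, 199.7 and 185.6 CPM under CRE. The lowest library rested on 1536 counts, and Nkx2-1 shares no exonic base with its antisense neighbour Gm26973. Library 2 was high in all 4 groups, and libraries 1 and 3 each held low and high values.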
